A study of Drosophila melanogaster with 13 samples.

Results

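Binding of the Hox protein Abdominal-B (Abd-B) was compared with that of Abdominal-A (Abd-A) in *Drosophila* Kc167 cells, using the ChIP-Seq peaks called for each protein. All peaks called at a q-value of 1e-10, the stringent lists, were taken. There were 9681 peaks for Abd-B and 5656 for Abd-A, 15337 of the 34149 stringent peaks of the series. The lists called at a q-value of 1e-2, the relaxed lists, served to look for weaker partners. Abd-B and Abd-A were each expressed as a GFP fusion from a transfected vector under the inducible metallothionein promoter, in cells of the same mother culture. GFP+ cells of a matched GFP level were sorted before anti-GFP ChIP, in 2 biological replicates per protein, with 36 bp paired reads. Kc167 is a line derived from female late embryos that expresses no Hox protein of its own. It makes no Hth, and its Exd stays in the cytoplasm, so both proteins were profiled without these cofactors. The input was chromatin combined from the Ubx, Abd-A and Abd-B samples, in 2 replicates, and it was the control for both lists. The lists hold no measure of the expressed protein, so the labels could not be checked against the data.

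Peaks were called once per protein, on the merged reads of both replicates, so no value below has a replicate error and no test between the proteins was possible. Shares are given with Wilson 95% intervals, which cover the counting of peaks only, and peaks that lie close together are not independent of each other. Medians carry an exact binomial 95% interval over peaks where one is given. The study lists more clean reads for Abd-B than for Abd-A, and weak sites are called more reliably in the deeper library. Depth and protein cannot be told apart in a difference of list length.

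Abd-A and Abd-B are homeodomain transcription factors of the bithorax complex, the group of Hox genes that gives the abdominal segments their identity. Abd-A acts in the anterior and middle abdomen, and Abd-B acts in the posterior abdomen and the genital segments. Their homeodomains recognise short AT-rich sites, with a TAAT core typical of Abd-A and a TTAT core typical of the Abd-B family. Hox proteins often bind together with the cofactors Exd and Hth, which sharpen their choice of sites. Genome sequence and gene annotation of BDGP release 5, the build of the peaks, were not used here, so sites are given by position alone.

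The score of a peak was its q-value against the input, given as −log10. Scores ran between 10.0 and 483 (median 68.0) in the stringent Abd-B list and between 10.6 and 410 (median 37.8) in the stringent Abd-A list. They grow with depth as well as with enrichment, so peaks were ranked within their own list, and each list was divided by score into 10 deciles of near-equal size, the first being the highest. The median peak width was 598 bp for Abd-B and 563 bp for Abd-A. Abd-B peaks covered 8474223 bp in all, against 4327167 bp under Abd-A peaks. Of these, 4126264 bp lay under both, which was 48.7% of the length covered by Abd-B and 95.4% of that covered by Abd-A.

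Peaks of the 2 lists were taken as partners when their shared stretch was at least 5% of the width of both. By this rule 5083 Abd-B peaks (52.5%; interval 51.5 to 53.5) matched a stringent Abd-A peak, and 5490 Abd-A peaks (97.1%; 96.6 to 97.5) matched a stringent Abd-B peak. The Abd-A share varied with the settings. It was 78.8% with the Abd-B list shortened to 5656 peaks and 68.8% with a minimum overlap of 50%. A minimum of 50% also leaves out Abd-A peaks inside an Abd-B peak that is more than 2 times as wide. With a score of 20 or more in both lists the share was 97.4%, and with both relaxed lists it was 94.4%. Without a stringent partner there were 4598 Abd-B peaks (47.5%) and 166 Abd-A peaks (2.93%). Partial contact played little role in these counts, as 2 of the 4598 Abd-B peaks and 7 of the 166 Abd-A peaks touched a peak of the other list by less than the minimum.

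The relaxed lists divided the peaks without a stringent partner further. A relaxed Abd-A partner was found for 7785 Abd-B peaks (80.4%), and a relaxed Abd-B partner for 5591 Abd-A peaks (98.9%). This left 1894 Abd-B peaks (19.6%; 18.8 to 20.4) with no Abd-A partner in either list. For Abd-A the same class held 25 peaks (0.442%; 0.300 to 0.652), of which 17 shared no base with a relaxed Abd-B peak. A further 40 Abd-A peaks had a stringent but no relaxed partner, because the relaxed Abd-B peak around them was so wide that they covered less than 5% of it.

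The class with a relaxed partner only held 2704 Abd-B peaks (27.9%) and 141 Abd-A peaks (2.49%). For 197 of these Abd-B peaks (7.29%) the relaxed Abd-A peak was a broad one that contained a stringent Abd-A peak elsewhere along its length. For the other 2507 (92.7%) it contained none. Even so, 1495 of these 2507 relaxed Abd-A partners (59.6%) had a score of 10 or more, their median score was 11.4 and their median width 489 bp. A score of 10 is the q-value limit of the stringent lists, whose narrowest Abd-A peak was 247 bp wide. Many of the relaxed Abd-A partners in this class therefore reached the q-value limit of the stringent list. Their widths were measured at the looser q-value and cannot be set against the 247 bp. Why they gave no stringent Abd-A peak was not tested.

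Whether an Abd-B peak had an Abd-A partner varied along the Abd-B list. In the highest-scoring decile, with scores of 181 to 483, 153 of 969 Abd-B peaks (15.8%; 13.6 to 18.2) had no stringent Abd-A partner. The share grew in each following decile, was 38.6% in the fifth and 52.4% in the sixth, and reached 88.0% (85.8 to 89.9; 852 of 968 peaks) in the lowest, where scores were 10.0 to 26.6. These shares stand against 47.5% over the whole list. With a minimum overlap of 50% in place of 5%, the share in the highest decile was 44.9%. That minimum also leaves out Abd-A peaks that lie inside a much wider Abd-B peak. Pairs of this decile had median widths of 1856 bp for Abd-B and 1098 bp for Abd-A. The 44.9% is therefore no count of sites without an Abd-A peak.

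The stronger class of difference, with no Abd-A partner in either list, was also present at the top. It held 60 peaks (6.19%; 4.84 to 7.89) of the highest Abd-B decile, 124 (12.8%) of the fifth and 450 (46.5%; 43.4 to 49.6) of the lowest, against 19.6% of the list. Peaks with a relaxed partner only followed another course. They were 9.60% of the highest decile and 47.0% of the ninth, and then 41.5% of the lowest, where the class without any partner was the larger of the pair.

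**Figure D1:**
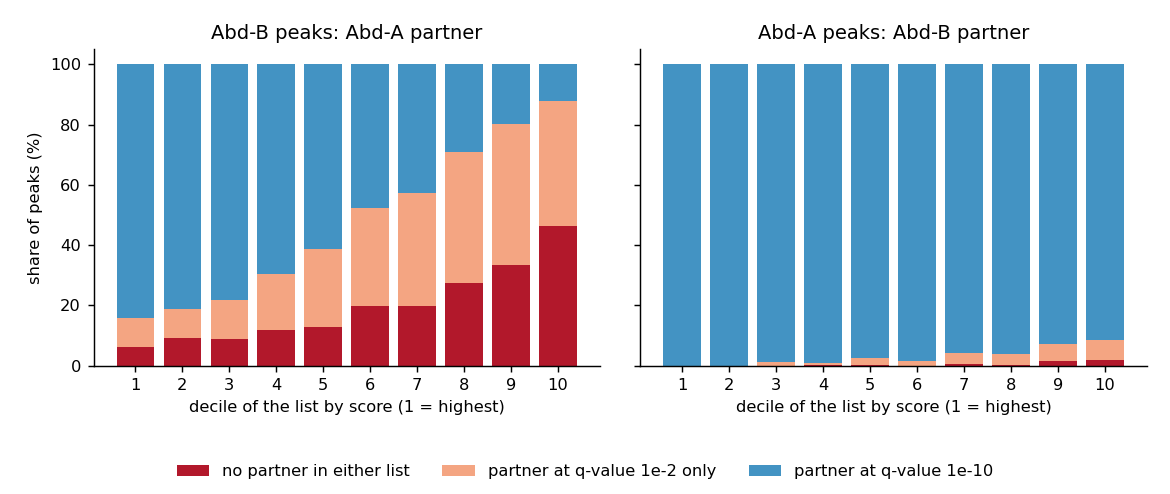
Share of peaks (y axis, %) with no partner in either list, with a partner at a q-value of 1e-2 only, and with a partner at a q-value of 1e-10, for each decile of the Abd-B list (left) and of the Abd-A list (right) by score (x axis, 1 is the highest). The share of Abd-B peaks without a stringent partner grows from 15.8% in the highest decile to 88.0% in the lowest, while that of Abd-A peaks stays at or below 8.50%.

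In the Abd-A list the corresponding shares were small throughout. None of the 566 Abd-A peaks of the highest decile and none of the 566 of the next lacked a stringent Abd-B partner, which allows a share of up to 0.674% in each (upper Wilson bound). In the lowest decile 48 of 565 (8.50%; 6.47 to 11.1) lacked one. The 166 Abd-A peaks without a stringent Abd-B partner were narrow, with a median width of 306 bp, against 576 bp for the 5490 with a partner, and their median score was 23.1, against 38.3.

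The highest-ranked Abd-A peak without a stringent Abd-B partner stood at rank 1216 of 5656. It lay on 3R from 7633366 to 7633725 (360 bp, Abd-A score 64.6), 136 bp from the nearest stringent Abd-B peak, and overlapped a relaxed Abd-B peak of score 25.8. The next was on 2R from 7903745 to 7904142 (398 bp, Abd-A score 63.7, rank 1253), where the relaxed Abd-B peak had a score of 14.3. The third, on X from 18534304 to 18535050 (747 bp, Abd-A score 61.1, rank 1345), had a relaxed Abd-B partner of score 6.29. All 3 also had a stringent Ubx partner in Experiment 1. At these sites the Abd-A peak had a far higher score than the relaxed Abd-B peak that overlapped it. The first of these relaxed Abd-B peaks was 1274 bp wide, so its score need not come from the stretch under the Abd-A peak.

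Of the 25 Abd-A peaks with no Abd-B partner at all, the highest was a 412 bp peak on 2R from 3799793 to 3800204 (score 47.7, rank 2029), 3522 bp from the nearest relaxed Abd-B peak. The second was a 335 bp peak on 2R from 7903054 to 7903388 (score 37.8, rank 2816). It neighbours the peak at 7903745 named above. Both lie in a stretch of 1089 bp where Abd-A had 2 stringent peaks and Abd-B had none. The third, on 3L from 14051477 to 14051927 (score 32.2, rank 3414), overlapped Abd-B peaks by less than 5%.

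The strongest Abd-B sites missing from the Abd-A profile ranked near the top of the Abd-B list. The highest Abd-B peak with no Abd-A partner in either list lay on 2L from 6407134 to 6407954, was 821 bp wide, and had a score of 360 and rank 30 of 9681. The nearest relaxed Abd-A peak was 3211 bp away. Next came a 983 bp Abd-B peak on 3R from 17971696 to 17972678 with a score of 339.9 (rank 63), which had no partner in any of the 4 other profiles at either q-value. Its nearest stringent Abd-A peak was 47564 bp away and its nearest relaxed one 1864 bp. The third, a 723 bp Abd-B peak on 3R from 19829424 to 19830146 with a score of 336 (rank 70), lay 9524 bp from a stringent and 1690 bp from a relaxed Abd-A peak, and had a relaxed partner in Ubx+Hth. Thus 3 of the 70 highest Abd-B peaks fell where Abd-A had no peak even at the relaxed q-value.

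The order of sites also differed between the lists. Of the 100 highest Abd-B peaks, 14 (14.0%; 8.53 to 22.1) had a partner among the 100 highest Abd-A peaks, although 91 of them had a partner somewhere in the stringent Abd-A list. With the 1000 highest peaks of each list, 439 Abd-B peaks (43.9%; 40.9 to 47.0) had a partner in the Abd-A set. The converse held for 473 Abd-A peaks (47.3%; 44.2 to 50.4). With 4000 of each list, the shares were 66.5% of Abd-B and 72.1% of Abd-A peaks. In the full stringent list of the other protein, 842 of the 1000 highest Abd-B peaks (84.2%; 81.8 to 86.3) and all of the 1000 highest Abd-A peaks had a partner. The 1000 highest Abd-A peaks were therefore all Abd-B sites, while the 100 highest of each list were largely different sites.

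The leading peaks of each list show this. The highest Abd-B peak lay on 3R from 16085116 to 16089342 (4227 bp, score 483), and a stringent Abd-A partner had a score of 63.7 and rank 1248. The wider relaxed Abd-A peak at this site had a score of 79.0. The second, on 2L from 18630355 to 18633544 (3190 bp, Abd-B score 468), had an Abd-A partner of score 40.9 at rank 2534. The third, on 2L from 7960551 to 7962291 (1741 bp, Abd-B score 439.9), had an Abd-A partner of score 104.6 at rank 425. All 3 were shared sites with a lower rank in Abd-A, and the third was still within the highest Abd-A decile.

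In the other direction the leading Abd-A sites kept a high rank in the Abd-B list. For the highest Abd-A peak, on 2L from 12009784 to 12012861 (3078 bp), the scores were 339.6 in Abd-B (rank 65) and 410 in Abd-A. The second, on 3R from 4635753 to 4638059 (2307 bp), had scores of 390 in Abd-B (rank 12) and 296 in Abd-A. The third, on X from 12628237 to 12630812 (2576 bp), had scores of 301 in Abd-B (rank 172) and 291 in Abd-A. All 3 had partners in each of the other lists as well.

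Peaks that were each other's best partner by shared length formed 5026 pairs. Each peak was given a percentile within its whole stringent list, 100 being the highest score. The percentile was higher in Abd-B than in Abd-A in 3354 pairs (66.7%; 65.4 to 68.0), and the median shift, Abd-B minus Abd-A, was 9.56 points (interval 8.68 to 10.3), with quartiles of -4.15 and 28.3. The Abd-B list goes on to many weak peaks without a partner, which raises the percentiles of the peaks above them. With the Abd-B list shortened to 5656 peaks the median shift was -3.18 points, over 4004 pairs. The set of pairs changed with the list, and the part of list length in the offset was not tested. When both peaks were ranked among the pairs alone, the median shift was -1.45 points with quartiles of -17.2 and 15.7. Ranks over the same pairs balance by construction, so this median says nothing about the offset.

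The spread of the shifts does not rest on this offset. Ranked among the pairs, 1681 pairs (33.4%) lay within 10 points of each other, 833 (16.6%) stood over 25 points higher in Abd-B and 840 (16.7%) over 25 points higher in Abd-A. Of the 533 pairs whose Abd-A peak was in the highest Abd-A decile, 312 (58.5%) had an Abd-B peak in the highest Abd-B decile and 500 (93.8%) had one in the highest 3 deciles. Of the 812 pairs whose Abd-B peak was in the highest Abd-B decile, the same 312 were 38.4%, and 146 (18.0%) had an Abd-A peak in the lower 5 deciles of its list. In the lowest Abd-B decile there were 108 pairs, and 98 of their Abd-A peaks (90.7%) were in the lower 5 deciles of the Abd-A list.

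**Figure D2:**
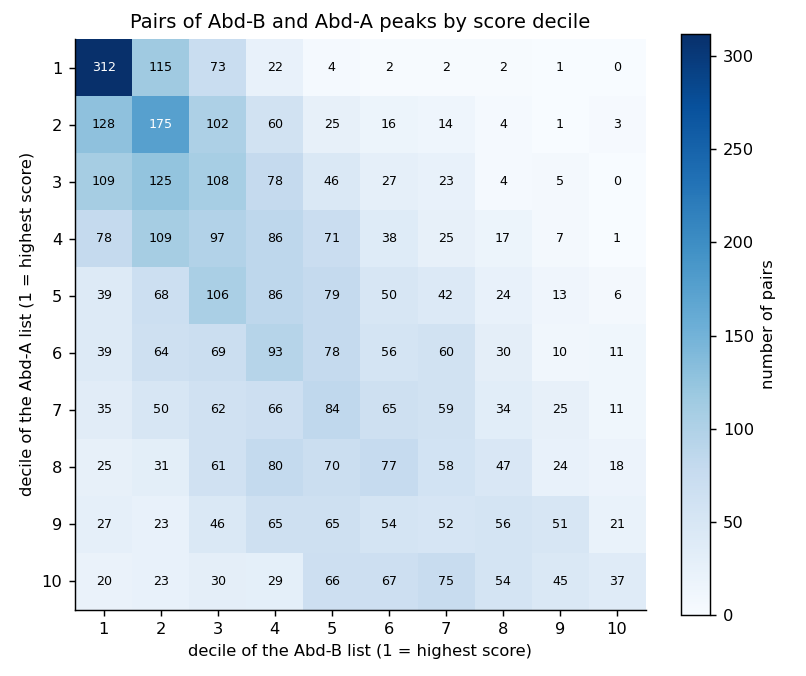
Number of pairs (colour and printed count) for each decile of the Abd-B list (x axis, 1 is the highest score) and of the Abd-A list (y axis). The largest cell holds the 312 pairs in the highest decile of both lists. Deciles are of whole lists of 9681 and 5656 peaks. The part of list length in the excess at the lower left over the upper right was not tested.

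The pairs with the largest shifts differed in width as well as in rank. On X from 13202564 to 13205233, a 2670 bp Abd-B peak with a score of 262 (rank 311) was paired with a 327 bp Abd-A peak of score 13.9 (rank 5568), a shift of 95.2 points. On 2R from 11240329 to 11243194, the 2866 bp Abd-B peak had a score of 283 (rank 218) and the 442 bp Abd-A peak a score of 15.5 (rank 5462), a shift of 94.3 points. On X from 16332113 to 16333178, the Abd-B peak had 1066 bp and a score of 256 (rank 346), against 249 bp and a score of 14.6 (rank 5519) for Abd-A, a shift of 94.0 points. All 3 are strong Abd-B sites whose paired Abd-A peak only just passed the stringent limit. At the first, a relaxed Abd-A peak of 3140 bp, which ran beyond the Abd-B peak, had a score of 24.6.

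In the 3 pairs that stood highest in Abd-A, the Abd-B peak was narrower than its Abd-A partner. On 3L from 15094626 to 15094923, a 298 bp Abd-B peak of score 20.3 (rank 9283) was paired with a 606 bp Abd-A peak of score 90.7 (rank 596), a shift of -85.4 points. On 2R from 2757543 to 2758039, the Abd-B peak had 497 bp and a score of 17.5 (rank 9485), against 614 bp and a score of 68.6 (rank 1087) for Abd-A, a shift of -78.8 points. On 2L from 13074915 to 13075440, the values were 526 bp and a score of 23.6 (rank 9011) for Abd-B, and 1633 bp and a score of 77.1 (rank 885) for Abd-A, a shift of -77.4 points. At each of these 3 sites Ubx had a stringent peak in both experiments. They are the converse of the X and 2R sites above, being high in the Abd-A list and near the end of the Abd-B list.

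Within pairs the Abd-B peak was usually the wider. It was wider in 4413 pairs (87.8%; 86.9 to 88.7) and at least 2 times as wide in 1041 (20.7%), with a median width of 888 bp for Abd-B and 592 bp for Abd-A. The median ratio of widths was 1.33 (interval 1.31 to 1.35). The Abd-A peak lay wholly inside the Abd-B peak in 3284 pairs (65.3%) and the Abd-B peak inside the Abd-A peak in 214 (4.26%). The centres of the peaks were within 100 bp of each other in 3034 pairs (60.4%) and over 500 bp apart in 306 (6.09%). Score and width both grow with depth, so the wider Abd-B peaks cannot be told apart from the deeper library. Where the relaxed Abd-A peak was taken as the partner, the ratio was 0.855, over 7244 pairs. Relaxed peaks are wider by their less strict q-value limit, and these pairs also include Abd-B peaks without a stringent partner. The 2 ratios are therefore not of the same pairs.

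The ratio of widths differed from the rest at the ends of the Abd-B list. In the highest Abd-B decile the pairs had a median ratio of 1.59, with 1856 bp for Abd-B and 1098 bp for Abd-A, and in the lowest decile a ratio of 1.06, with 391 bp for Abd-B and 374 bp for Abd-A. Between them it was flat, at 1.31 to 1.32 in the second to seventh deciles, and then 1.255 in the eighth and 1.147 in the ninth. The deciles are set by Abd-B score, which goes with Abd-B width. Some broad Abd-B peaks spanned several Abd-A peaks. There were 334 Abd-B peaks with 2 Abd-A partners (median Abd-B width 2484 bp), 52 with 3 and 10 with 4. The reverse was less frequent, with 59 Abd-A peaks that had 2 Abd-B partners and 1 that had 3. The highest-scoring Abd-B peak with 4 partners lay on X from 3669094 to 3675418 (6325 bp, score 385, rank 16). Its 4 Abd-A partners had scores of 31.4, 92.1, 58.9 and 46.7, and together they ran from 3669676 to 3675385, so Abd-A had separate peaks along a stretch where Abd-B had a single one.

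Abd-B peaks without a stringent Abd-A partner were narrower than those with one, within a decile of score too. The median width was 426 bp for the 1894 without a partner in either list, 435 bp for the 2704 with a relaxed partner only and 883 bp for the 5083 with a stringent one. Within the highest decile the medians were 934, 1069 and 1856 bp in that order. Within the fifth decile they were 546, 478 and 720 bp, and within the lowest 319, 348 and 391 bp. A narrow peak has less length in which another can fall, and the part of width in these counts was not tested.

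**Figure D3:**
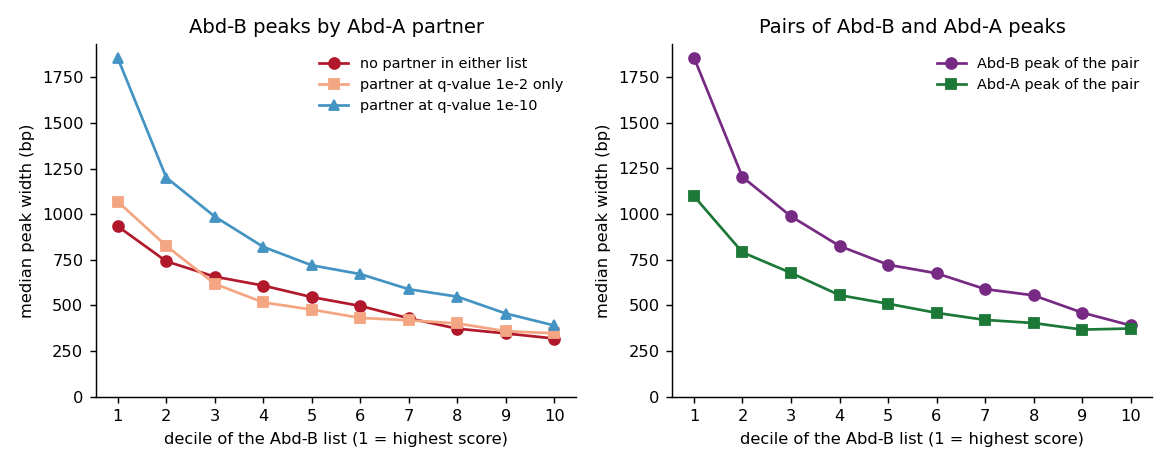
Median peak width (y axis, bp) by decile of the Abd-B list (x axis, 1 is the highest score), on the left for Abd-B peaks by class of Abd-A partner and on the right for both peaks of each pair. In the highest decile Abd-B peaks with a stringent partner have a median of 1856 bp, against 934 bp for those with no partner, and the lines draw close in the lowest decile.

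The distance to the other profile shows how Abd-B peaks without a partner lay in the genome. The median distance between the edges of such a peak and the nearest stringent Abd-A peak was 4362 bp (interval 4135 to 4577), with quartiles of 1706 and 10999 bp. Within 1000 bp lay 638 of the 4598 peaks (13.9%), and within 10000 bp lay 3342 (72.7%). The distance showed no steady order with score, as its median was 3337 bp in the highest Abd-B decile, 5280 bp in the second and 4303 bp in the lowest. For the 166 Abd-A peaks the median distance to a stringent Abd-B peak was 1643 bp (1113 to 2270), and 64 of them (38.6%) lay within 1000 bp. The denser Abd-B list leaves shorter distances by its length alone, so the values for Abd-B and Abd-A were not compared further.

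The 1894 Abd-B peaks with no partner in either list lay at a median of 2625 bp (2403 to 2894) from the nearest relaxed Abd-A peak, with 470 (24.8%) within 1000 bp and 1573 (83.1%) within 10000 bp. The share of the genome within these distances of an Abd-A peak was not measured, so nothing particular to these peaks is read from them. The farthest lay on 3R from 1923217 to 1923568 (352 bp, score 20.5), 72889 bp from any relaxed Abd-A peak. The others of the 3 farthest were on 3L from 13730888 to 13731297 (410 bp, score 37.0), at 69747 bp, and on 2L from 1295344 to 1295678 (335 bp, score 24.5), at 66315 bp. All 3 were weak to moderate peaks, at ranks 9262, 7596 and 8923, and had no partner in any of the 4 other profiles.

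**Figure D4:**
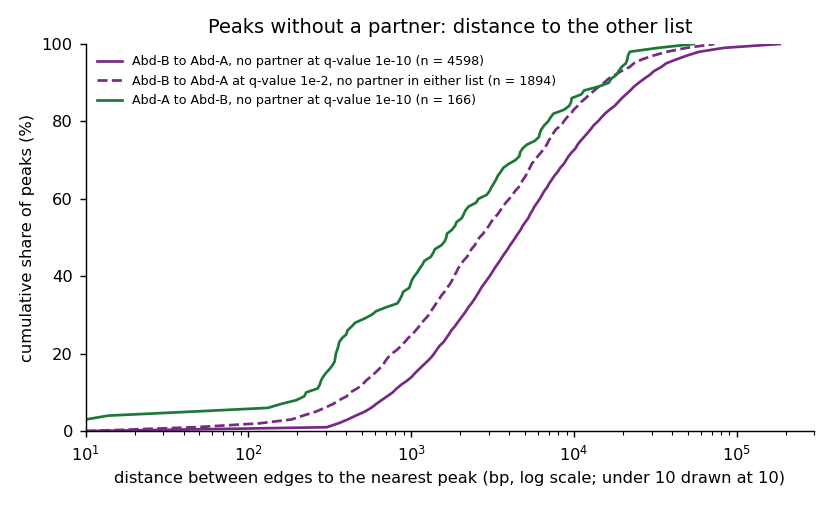
Cumulative share of peaks without a partner (y axis, %) by distance between edges to the nearest peak of the other list (x axis, bp, log scale, values under 10 bp drawn at 10). The medians are 4362 bp for the 4598 Abd-B peaks without a stringent partner, 2625 bp for the 1894 Abd-B peaks with no partner in either list, measured to the relaxed Abd-A list, and 1643 bp for the 166 Abd-A peaks.

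The order of the peaks along the chromosomes was described by runs. Taken in order along the chromosomes, the 4598 peaks formed 2282 runs with no Abd-B peak with an Abd-A partner between them. There were 1186 single peaks, and 159 runs of 5 or more that held 1003 peaks (21.8%). The 5083 with a stringent partner formed 2284 runs, of which 1009 were single peaks and 204 of 5 or more held 1292 peaks (25.4%). With 47.5% of the list lacking a partner, many runs arise from that share alone. The longest run had 17 Abd-B peaks on 3R from 17869238 to 17995550, a stretch of 126313 bp, with scores of 16.2 to 339.9, and 4 of the 17 had a relaxed Abd-A partner. This run contains the peak at 17971696 named above. A run of 12 on 2R from 12967880 to 12997383 was more compact, with 29504 bp, and another 12 lay on 3L from 20793273 to 20923547. Among Abd-B peaks with no Abd-A partner in either list, the longest run was of 7 on 3L from 11362272 to 11427266, and 1 of 6 on 3R from 10257210 to 10297972 had a median Abd-B score of 120.

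Such peaks were only slightly farther from other Abd-B peaks than the rest of the list. The nearest other Abd-B peak was at a median of 1964 bp from Abd-B peaks with no Abd-A partner in either list, 1854 bp from those with a relaxed partner only and 1598 bp from those with a stringent partner.

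The share of Abd-B peaks with a stringent Abd-A partner was highest on X among the chromosome arms and lowest on 2L and 3L. It was 58.3% (55.9 to 60.7; 954 of 1636) on X, 54.1% on 2R, 52.9% on 3R, 49.0% on 3L and 48.8% (46.4 to 51.1; 831 of 1704) on 2L, against 52.5% over the list. On chromosome 4 it was 54.5%, but from 88 peaks, with an interval of 44.2 to 64.5 that spans all of the other values. The order of X and 2L was the same among the higher-scoring 5 deciles of the Abd-B list, with 81.5% on X and 72.0% on 2L, and among the lower 5, with 37.4% on X and 26.3% on 2L. With relaxed Abd-A partners the shares were 84.8% on X and 77.5% on 2L. Median widths of Abd-B peaks, 594 bp on X and 578 bp on 2L, and median scores, 64.8 on X and 67.1 on 2L, differed little. In the Abd-A list the share with an Abd-B partner was between 96.8% and 98.0% on every chromosome. X held 16.9% of the Abd-B and 18.9% of the Abd-A peaks.

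The share was also counted along the arms. Among 120 windows of 1000000 bp with at least 20 Abd-B peaks, the share with a stringent Abd-A partner had a median of 52.75%, quartiles of 47.4% and 58.9%, and extremes of 28.6% and 87.1%. The highest was the first window of 2R, where 27 of 31 Abd-B peaks had a partner. The lowest was on 3L from 23000001, with 8 of 28, although 89.3% of these had a relaxed partner. Next lowest was 2L from 14000001, where 17 of 57 (29.8%) had a stringent and 50.9% a relaxed partner. Windows held 23 to 139 Abd-B peaks, so counting error widens this range, and it was not compared with that between the arms.

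The other profiles of the series were not used to choose the classes, but every list was called against the same input, so sites that this input makes easy or hard to call are shared by construction. The Experiment 2 profiles, which are Ubx, its DNA-binding mutant and Ubx+Hth, had 100 bp reads from another sequencer. Abd-B, Abd-A, Ubx of Experiment 1 and the input had 36 bp reads. Experiment and read length therefore differ along with the expressed protein in comparisons with Experiment 2. The overlaps are given as a description. Among the 1894 Abd-B peaks with no Abd-A partner in either list, 619 (32.7%; 30.6 to 34.8) had a relaxed partner in Ubx+Hth, the profile of Ubx expressed with its cofactor Hth. Relaxed partners in the other lists were fewer, with 165 (8.71%) in Ubx of Experiment 2, which had 1 replicate, 74 (3.91%) in the DNA-binding mutant of Ubx and 145 (7.66%) in Ubx of Experiment 1. Together 714 (37.7%) had a partner in at least 1 of these 4 relaxed lists, which leaves 62.3% found for Abd-B alone.

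Abd-B peaks with a relaxed Abd-A partner only stood between the other classes. Of the 2704, 2348 (86.8%) had a relaxed partner in Ubx+Hth and 2014 (74.5%) in Ubx of Experiment 1. The 5083 with a stringent Abd-A partner had 5032 (99.0%) in Ubx+Hth and 5069 (99.7%) in Ubx of Experiment 1. The share with a relaxed partner in mutant Ubx was 35.2% for the middle class, against 78.9% for the class with a stringent Abd-A partner. The gap between the classes was also present among the strongest peaks. In the highest Abd-B decile, 31 of the 60 peaks without any Abd-A partner (51.7%; 39.3 to 63.8) had a relaxed Ubx+Hth partner and 4 (6.67%) a relaxed partner in Ubx of Experiment 1, against all 816 of those with a stringent Abd-A partner in both lists. The library of Ubx+Hth was also the deepest of the ChIP series in clean reads, and the part of depth in its larger share was not tested. The mutant Ubx library was next in depth, but its DNA contact residues were mutated, so its share of 3.91% gives no measure of the part of depth.

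**Figure D5:**
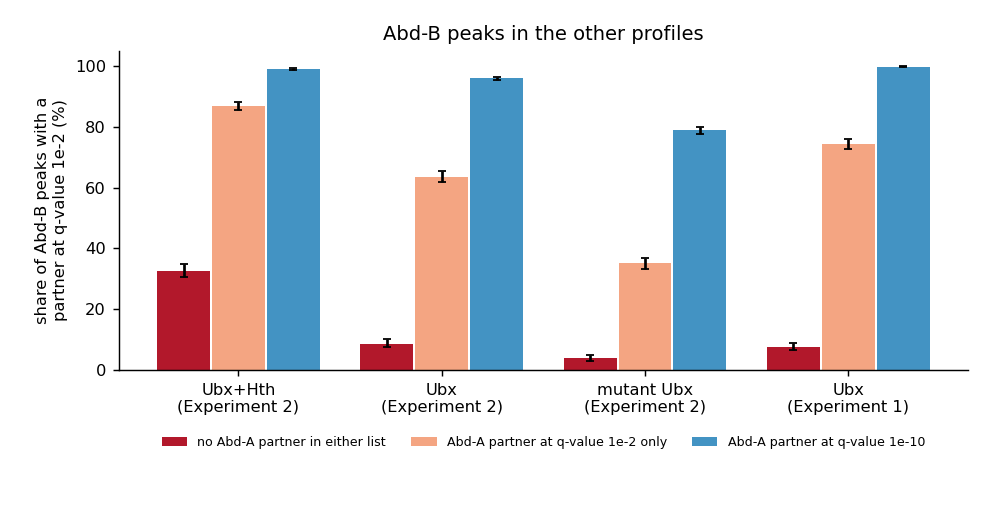
Share of Abd-B peaks (y axis, %) with a partner at a q-value of 1e-2 in each of the 4 other profiles (x axis), for Abd-B peaks with no Abd-A partner in either list, with one at a q-value of 1e-2 only and with one at a q-value of 1e-10. Bars are shares and error bars Wilson 95% intervals, and peaks with no Abd-A partner reach 32.7% in Ubx+Hth and 3.91% to 8.71% elsewhere.

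Abd-A peaks without a stringent Abd-B partner were also looked up in the other profiles. Of the 166, 160 (96.4%; 92.3 to 98.3) had a relaxed partner in Ubx of Experiment 1, against 5473 of the 5490 with a stringent Abd-B partner (99.7%; 99.5 to 99.8). At the stringent q-value the numbers were 51 of the 166 (30.7%; 24.2 to 38.1) and 4256 of the 5490 (77.5%; 76.4 to 78.6). In Ubx+Hth, 151 of the 166 (91.0%) and 5427 of the 5490 (98.9%) had a relaxed partner. Of the 25 with no Abd-B partner in either list, 23 had a relaxed partner in Ubx of Experiment 1. Shares in the other profiles were thus lower for the 166 than for the Abd-A peaks that Abd-B shared, above all at the stringent q-value. The 166 also had lower Abd-A scores (median 23.1 against 38.3), and the part of score was not tested. Among shared Abd-A peaks, the stringent share in Ubx of Experiment 1 was 100% in the highest Abd-A decile and 29.6% in the lowest. In that lowest decile it was 10.8% of the 37 Abd-A peaks with a relaxed Abd-B partner only and 36.4% of the 11 with none.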

How the data were processed

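ChIP-Seq peaks of Abd-B and Abd-A from Experiment 1 were analysed, with the 4 other profiles for comparison. The authors mapped paired reads to BDGP release 5 with Bowtie 1.0.1, kept unique reads, merged the replicates, and discarded reads that could stem from the plasmids. They called peaks with MACS2 2.1.0.20140616 against the Experiment 1 input at q-values of 1e-10 and 1e-2, and kept chromosome arms, 4, X and M. As a score, the deposited lists give the −log10 q-value. Depth cannot be read from the lists.

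Overlaps were computed with numpy 2.4.6 under python 3.11.15, at the 5% reciprocal minimum of the study, and gave the counts of bedtools 2.31.1 in 12 of 12 comparisons. They were tested on simulated data. Ties in score were ranked by position. Intervals used scipy 1.17.1, and figures matplotlib 3.10.9. Named peaks were the 3 highest, 3 farthest or 3 with the largest shift of each class, and the Abd-B peak with the most Abd-A partners. The members, classes and rules were chosen with earlier results of these data known. Runs, windows and other profiles were chosen later. Alternatives were the minimum overlap, the q-value, the list length, merging of close peaks, the choice of pairs and the measure of distance.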

Additional observations from a re-analysis of the deposited data

How the results depend on the processing

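Of 52 values under other settings, for 7 results, 19 lay within the interval of the reported value, 31 lay outside it and 2 changed sign, and the cause was not tested. The order below is the share of Abd-B peaks with an Abd-A partner, the share of Abd-A peaks with an Abd-B partner, the share without a partner in the highest and in the lowest Abd-B decile, the median shift, the median ratio of widths and the median distance. A minimum overlap of 50% gave 40.2%, 68.8%, 44.9%, 91.4%, 6.67 points, 1.22 and 2702 bp. Both relaxed lists gave 65.6%, 94.4%, 6.00%, 81.9%, 6.15 points, 1.13 and 3265 bp. Partners in the relaxed list gave 80.4%, 98.9%, 6.19%, 46.5%, -2.66 points, 0.855 and 2615 bp. The Abd-B list at the length of the Abd-A list gave 71.1%, 78.8%, 51.5% in the lowest decile, -3.18 points and 1.355. A score of 20 or more gave 48.75%, 90.1% in the lowest decile, 11.15 points, 1.30 and 4775 bp. Pairs with exactly 1 partner each gave a ratio of 1.29, and distances between centres gave 5014 bp. A minimum of 1 bp and merging of peaks closer than 100 bp moved none of the 7 results outside its interval, and no peaks were that close, the smallest gap being 254 bp in the Abd-B and 250 bp in the Abd-A list. The share with a partner was higher on X than on 2L under all 7 alternatives tried for it, which were added after seeing the data. No paired analysis was possible because peaks were called on merged replicates, which also meant that leaving out a replicate could not be tried. No table varied the depth, so its part in these values was not tested.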
